A study of Rattus norvegicus with 2 samples.

Results

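The prostaglandin enzymes described here are the 6 genes Ptgs1, Ptgs2, Ptges, Ptgds, Ptgis and Hpgd, found by symbol among the 25399 genes listed for 2 single-cell libraries of rat optic nerve cells. Of the 6 symbols, 5 were found, and Ptgis was not analysed here. The set was chosen by its UMI levels over the clusters of these cells and its differences between the libraries, which were already known, so the values that follow describe the cells and none of them is a test. The libraries hold cells of the optic nerve from WT rats and from Nuc1 rats, which carry a spontaneous insertion mutation in Cryba1, the gene of βA3/A1-crystallin. The study's methods name the WT animals as Sprague Dawley, and its reporting summary lists its rats under that strain and as of both sexes. The labels give both libraries an age of postnatal day 7, and no agent is named for either. For its astrocyte cultures the study names 2-day-old pups of WT and Nuc1 rats, an age unlike that of the labels. The number of animals behind a library is not given in the sources used here. The study's methods describe primary cultures of mixed glia from the optic nerve, and the series title a mixed cell culture. The design text speaks of harvested and digested nerve, and how long the cells were in culture is not known here. Cryba1 had 0 UMIs (unique molecular identifiers, each standing for 1 captured transcript) in both libraries, so its level does not check the labels. With 1 library per genotype there is no replicate check: any difference between WT and Nuc1 may belong to the library, the culture or the animals, and every interval below is a 95% interval that covers counting error only.

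Prostaglandins are short-lived lipid signals made from arachidonic acid. A cyclooxygenase, Ptgs1 in many resting cells or the inducible Ptgs2, makes prostaglandin H2, which terminal synthases turn into the active products: Ptges makes prostaglandin E2, Ptgds prostaglandin D2, and Ptgis prostacyclin. Hpgd oxidises prostaglandins and ends their signal, and in nervous tissue Ptgds is best known from the leptomeninges, the choroid plexus and the cerebrospinal fluid, where its protein also carries lipids. The files also list mitochondrial genes called COX1 and COX2, which are cytochrome oxidase subunits and were not counted as cyclooxygenases.

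Promoter sequences of RefSeq (build GRCr8) were found for 5 of the 6 genes. The 250 bases before the start sites of both cyclooxygenases and of Ptges are shown, because the cyclooxygenases catalyse the same step but had different distributions over these cells, and Ptges had its level concentrated in 1 cluster. Each runs 5′ to 3′ on the gene's own strand, and capitals mark matches, on either strand, to the E-box CACGTG, the GC box GGGCGG, the C/EBP core TTNNGNAA, the cyclic AMP response element core CGTCA or the TATA box TATAAA. The windows lie at chr3:39981169-39981418 on the plus strand for Ptgs1, chr13:64713813-64714062 on the plus strand for Ptgs2 and chr3:34586988-34587237 on the minus strand for Ptges.
Ptgs1: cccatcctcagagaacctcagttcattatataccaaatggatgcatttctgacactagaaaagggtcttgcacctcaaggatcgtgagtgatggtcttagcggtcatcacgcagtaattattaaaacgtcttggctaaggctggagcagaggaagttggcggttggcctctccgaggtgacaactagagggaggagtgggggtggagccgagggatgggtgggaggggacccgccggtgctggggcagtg
Ptgs2: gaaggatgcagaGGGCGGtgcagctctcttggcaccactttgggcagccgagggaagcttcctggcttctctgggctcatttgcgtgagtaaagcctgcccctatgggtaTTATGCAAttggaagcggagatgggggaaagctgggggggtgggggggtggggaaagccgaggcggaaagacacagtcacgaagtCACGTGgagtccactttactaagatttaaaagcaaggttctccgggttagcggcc
Ptges: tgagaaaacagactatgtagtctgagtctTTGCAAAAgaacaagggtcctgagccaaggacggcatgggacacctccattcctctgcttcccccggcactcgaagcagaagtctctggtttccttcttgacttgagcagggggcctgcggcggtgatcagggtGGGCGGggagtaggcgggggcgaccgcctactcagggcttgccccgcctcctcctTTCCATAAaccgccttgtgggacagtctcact
The Ptgs1 window held none of the 5 motifs. The Ptgs2 window held an E-box that begins 55 bases before the start site, a C/EBP core at 140 bases and a GC box at 238 bases, and no 2 of these overlap. Ptges had C/EBP cores at 221 and 32 bases and a GC box at 87 bases. Among all 33469 promoters of the same length, 5.59% held the E-box, 30.5% the GC box, 37.2% the C/EBP core, 18.2% the cyclic AMP core and 12.9% the TATA box, so the E-box was the least common of the 5. A match describes the letters of these windows and is not a site shown to be bound.

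After filtering, 1963 WT cells (33864442 UMIs, median 14050 per cell) and 1782 Nuc1 cells (34686732 UMIs, median 16577.5 per cell) were kept, and 2 cell barcodes occurred in both libraries. Cells were clustered with the 5 genes and the other genes of the pathway kept out of the variable genes, so that their levels did not make the clusters. Ptges was still among the 10 leading genes of cluster 4. Clusters 0, 1, 2 and 4 were called fibroblast-like from their fibroblast markers and held 1599 WT and 1188 Nuc1 cells. Igfbp5 and Ccn3 led cluster 0 (677 WT and 395 Nuc1 cells), Actg2 and Penk cluster 1 (570 and 222), Shisa3 and Cldn11 cluster 2 (298 and 203), and Inmt and Cyp26b1 cluster 4 (54 and 368). Cluster 5 had fibroblast markers too, but dividing-cell markers led it, and it was kept out of the fibroblast-like class (145 WT cells, 7.39%, and 77 Nuc1 cells, 4.32%). Cluster 3 was astrocyte-like (107 and 350), cluster 6 carried motile cilia genes beside astrocyte markers (14 and 104), cluster 7 was like the oligodendrocyte lineage (52 and 10) and cluster 9 like macrophages (23 and 22). Cluster 8 (23 and 31), led by Ttr and Gldn, stayed unnamed. Depth was uneven among the small clusters: macrophage-like cells had a median of 8493 UMIs in WT and 1807.5 in Nuc1, and their summed macrophage markers stood at 19980 and 6035 CPM, where CPM is a gene's UMIs per 1000000 UMIs of the cells summed.

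Ptgs2 (ENSRNOG00000002525), the inducible cyclooxygenase, was a gene of the fibroblast-like and dividing clusters in both libraries and was lower in Nuc1 in each of them. In WT it reached 123 CPM in cluster 4, 100 in cluster 1, 85.0 in cluster 2, 83.7 in the dividing cluster 5 and 54.9 in cluster 0. In Nuc1 the order was different, with 82.9 CPM in cluster 1, 52.3 in cluster 5, 32.6 in cluster 4, 18.4 in cluster 2 and 13.9 in cluster 0. The intervals of clusters 4 and 1 overlapped in WT, as did those of clusters 2 and 5, whereas in Nuc1 only the last pair, clusters 2 and 0, overlapped.

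The other cells had little or no Ptgs2. Astrocyte-like cells held 12 UMIs in WT (4.28 CPM) and 9 in Nuc1 (1.0 CPM), and the motile cilia cluster 1 UMI in all. Neither the oligodendrocyte-lineage nor the macrophage-like cluster had any. A sum of 0 allows up to 3 counts, which is 3.82 CPM in WT and 28.1 in Nuc1 for the former and 12.7 and 40.2 for the latter, so the Nuc1 cells of both clusters could hide a level like that of Nuc1 cluster 0.

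**Figure D1:**
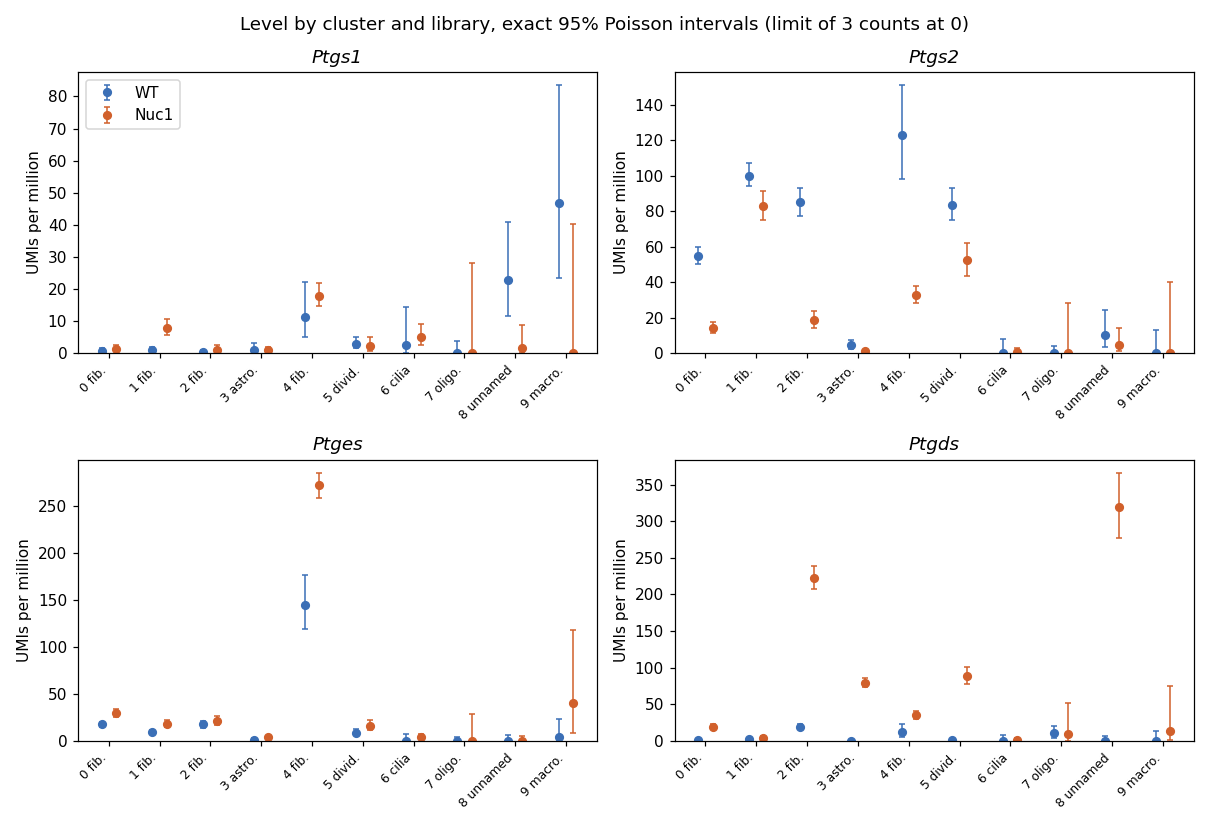
Level (CPM) of Ptgs1, Ptgs2, Ptges and Ptgds (vertical axes, linear, each with its own range) in the 10 clusters, for WT (blue) and Nuc1 (orange); bars are exact 95% Poisson intervals, and at 0 they reach the limit of 3 counts. Ptgs2 is lower in Nuc1 in clusters 0, 1, 2, 4 and 5, and Ptges stands highest in cluster 4 at 145 and 272 CPM. The Nuc1 values of Ptgds in clusters 3, 5 and 8 come mostly from 1 or 2 cells each, and 5 cells hold 74.8% of its Nuc1 UMIs in cluster 2.

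Taken over the fibroblast-like clusters, Ptgs2 had 2057 UMIs in WT (81.4 CPM, 77.9 to 85.0) and 743 in Nuc1 (36.6 CPM, 34.0 to 39.3), a log2 ratio of Nuc1 over WT of -1.15 (-1.28 to -1.03). The ratio was unequal among the clusters. It was -1.98 (-2.33 to -1.64) in cluster 0, -2.21 (-2.60 to -1.83) in cluster 2 and -1.91 (-2.29 to -1.53) in cluster 4, but -0.27 (-0.44 to -0.11) in cluster 1 and -0.68 (-0.99 to -0.38) in cluster 5. Cluster 1, the Actg2 and Penk type, thus lay nearest to 0, with an interval apart from those of the other fibroblast-like clusters. How far such ratios vary between libraries of 1 genotype is not known. The WT value of cluster 4 rests on few cells, since 18 of its 87 UMIs (20.7%) were in 1 cell.

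The number of cells with Ptgs2 differed in the same way. In cluster 0, 189 of 677 WT cells (27.9%) and 50 of 395 Nuc1 cells (12.7%) had a UMI of it. After cells with at least 5000 UMIs were thinned to 5000 and the others left out, the shares were 15.2% of 671 and 5.60% of 393. Cluster 2 gave 38.3% and 15.8%, or 23.2% and 6.50% thinned. In cluster 1 the thinned shares were 26.4% (22.8 to 30.2) and 25.0% (19.4 to 31.3) and overlapped. For comparison, 0 of 52 oligodendrocyte-lineage cells of WT had a UMI of Ptgs2, which allows a share of up to 5.77%, at a median of 12003 UMIs per cell against 11929 in WT cluster 0.

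Ptgs2 is itself an immediate-early gene, and the list of 9 such genes set beside it (8 found) was lower in Nuc1 in each fibroblast-like cluster. It was also lower in Nuc1 in all other clusters but the macrophage-like one. Astrocyte-like cells had 3519 CPM in WT and 1575 in Nuc1, and the dividing cluster 3954 and 1871. Oligodendrocyte-lineage cells had 5931 and 3352 CPM, cluster 8 had 4647 and 2833, and the motile cilia cluster 3045 and 2546. Macrophage-like cells had 1243 CPM in WT and 1408 in Nuc1, the latter from 22 shallow cells. In the fibroblast-like clusters the summed level was 6491 CPM in WT and 3232 in Nuc1 in cluster 0, 5068 and 2614 in cluster 1, 5832 and 2718 in cluster 2, and 6845 and 3809 in cluster 4. All 8 genes had a negative log2 ratio in the fibroblast-like clusters, from -0.50 for Jun and -0.56 for Fos to -1.89 for Atf3 and -2.62 for Nr4a1, a nuclear receptor induced by many stimuli. The ratio of Nr4a1 was -2.25 in cluster 1, against -2.51 in cluster 0, -2.92 in cluster 2 and -2.33 in cluster 4, so cluster 1 did not stand apart for that gene as it did for Ptgs2. Summed fibroblast markers were lower as well, at 11250 CPM in WT and 5738 in Nuc1 in cluster 0 and at 12658 and 7015 in cluster 1. The part of either list in the Ptgs2 values was not tested. The cyclic AMP core occurred in the promoter windows of 5 of the 6 immediate-early genes with an entry and not in that of Ptgs2.

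Ptges (ENSRNOG00000006320), the inducible synthase of prostaglandin E2, marked the Inmt and Cyp26b1 fibroblast-like cells. Cluster 4 held 103 UMIs in 54 WT cells (145 CPM, 119 to 176) and 1551 UMIs in 368 Nuc1 cells (272 CPM, 258 to 285), which is 8.32 times the next cluster in WT and 6.75 times the next in Nuc1, the latter being the shallow macrophage-like cluster with 3 UMIs. The remaining fibroblast-like clusters lay between 9.27 and 17.5 CPM in WT and between 17.8 and 29.5 in Nuc1. The dividing cluster had 8.73 and 15.9 CPM, astrocyte-like cells 0.713 and 3.90, and the motile cilia cluster 0 and 8 UMIs. No UMI was found in clusters 7 and 8 of either library.

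A UMI of Ptges was present in 34 of 54 WT cells of cluster 4 (63.0%, 48.7 to 75.7) and in 316 of 368 Nuc1 cells (85.9%, 81.9 to 89.3). At 5000 UMIs per cell the shares were 31.5% (19.5 to 45.6) and 62.1% (56.9 to 67.1). Oligodendrocyte-lineage cells, at a median of 12003 UMIs against 12669 in WT cluster 4, had 0 of 52. The top cell held 12.6% of the cluster's UMIs in WT and 1.93% in Nuc1.

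Over the fibroblast-like clusters pooled, Ptges was 17.7 CPM in WT and 93.2 in Nuc1, a log2 ratio of 2.40 (2.25 to 2.55), yet no single fibroblast-like cluster had a ratio near that value. The ratios were 0.76 (0.44 to 1.07) in cluster 0, 0.94 (0.51 to 1.38) in cluster 1, 0.29 (-0.17 to 0.74) in cluster 2 and 0.90 (0.61 to 1.20) in cluster 4, and their mean with clusters weighted equally was 0.72. Cluster 4 made up 2.75% of WT cells and 20.7% of Nuc1 cells and held 21.3% of the WT and 78.4% of the Nuc1 UMIs of Ptges. The pooled ratio therefore counts the make-up of the 2 samples along with the level per cell. The cluster's own leading genes also differed, since Inmt and Cyp26b1 summed to 291 CPM in its WT cells and 1736 in its Nuc1 cells; whether the 54 WT cells are of the same kind was not tested. Endothelial markers summed to 84.6 CPM in WT and 133 in Nuc1 in cluster 4, mural markers to 216 and 305, and their part in the Ptges level was not tested.

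**Figure D2:**
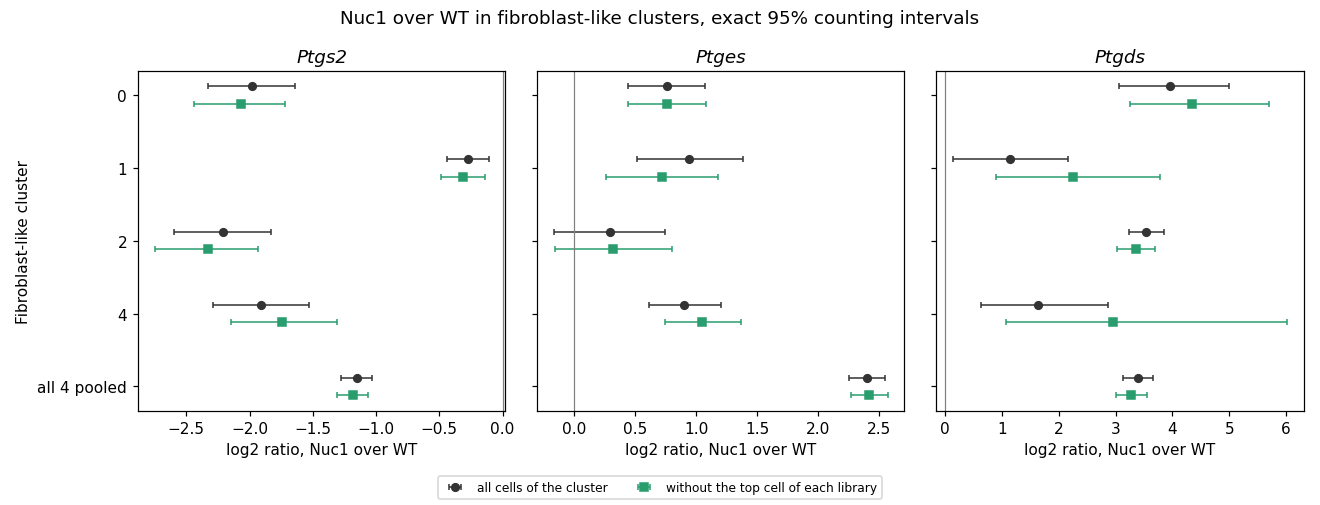
Log2 ratio of Nuc1 over WT (horizontal axes) of Ptgs2, Ptges and Ptgds in fibroblast-like clusters 0, 1, 2 and 4 and in all 4 pooled, with exact 95% counting intervals, over all cells (circles) and without the top cell of each library (squares). The pooled ratio of Ptges, 2.40, lies beyond all 4 of its cluster ratios, and Ptgs2 in cluster 1 lies nearest to 0.

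Ptgs2 and Ptges act in sequence, and the share of cells with Ptges was compared between cells with and without Ptgs2. Among cluster 4 cells of Nuc1 thinned to 5000 UMIs, 22 of 32 cells with Ptgs2 also had Ptges (68.8%, 50 to 83.9), against 206 of 335 cells without it (61.5%, 56.0 to 66.7). WT cells of cluster 4 gave 33.3% and 30.6%. In cluster 1 of WT, where Ptgs2 was widespread, Ptges was present in 2.68% of cells with Ptgs2 and in 3.85% of the others. The intervals overlapped in each fibroblast-like cluster of both libraries, so a difference was not detectable at this depth.

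Ptgs1 (ENSRNOG00000007415), the constitutive cyclooxygenase, was sparse, with 62 UMIs in WT and 176 in Nuc1. Its highest WT level was in macrophage-like cells, where 6 of 23 cells held 11 UMIs (46.7 CPM, 23.3 to 83.5). The 22 Nuc1 macrophage-like cells had 0 UMIs in a total of 74559, which allows up to 40.2 CPM, so a difference was not detectable at this depth. Cluster 4 came next among the larger clusters, with 8 UMIs in WT (11.3 CPM, 4.87 to 22.2) and 102 in Nuc1 (17.9 CPM, 14.6 to 21.7), and held 58.0% of the Nuc1 UMIs. The log2 ratio within cluster 4 was 0.66 (-0.37 to 1.91), an interval that includes 0. Over the fibroblast-like clusters the ratio was 2.90 (2.28 to 3.57), at 0.99 CPM in WT and 7.38 in Nuc1, and here too the pooled value counts the larger share of cluster 4 in Nuc1.

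Cluster 1 had 10 UMIs of Ptgs1 in WT (0.976 CPM) and 38 in Nuc1 (7.78 CPM), but 20 of the 38 were in 1 cell. That cell also held 18 UMIs of Ptgs2, and Ecm1, Fth1 and Nqo1 led it over the other cells of its cluster. Without the top cell of each library the log2 ratio was 2.45 (1.12 to 3.95) in place of 3.0 (1.96 to 4.17). The unnamed cluster 8 went the other way, with 11 UMIs in 5 of 23 WT cells (22.8 CPM) and 1 UMI in 31 Nuc1 cells (1.59 CPM). Of the 11 WT UMIs, 5 (45.5%) were in 1 cell, and without it the WT level was 13.4 CPM. The 3 WT cells of cluster 8 with the most Ptgs1 (5, 2 and 2 UMIs) had 0 UMIs of Ttr. The cluster's Ttr level, 32481 CPM in 1112660 UMIs over both libraries, includes 2 Nuc1 cells with 9093 and 13661 Ttr UMIs. Ttr in its other WT cells is not given here, so whether these 3 stand apart from them is not known. Astrocyte-like cells stood at 1.07 CPM in WT and 1.0 in Nuc1, and oligodendrocyte-lineage cells at 0 in both.

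Ptgds (ENSRNOG00000015550), the synthase of prostaglandin D2, depended on a handful of cells. WT cells held 150 UMIs of it (4.43 CPM) and Nuc1 cells 2288 (66.0 CPM), a log2 ratio of 3.90 (3.66 to 4.14). In Nuc1 a single cell carried 691 of the 2288 UMIs (30.2%), and 4 cells carried more than 50% of them. In WT the top cell had 14 of 150 UMIs (9.33%) and 8 cells were needed to reach 50%. A top cell with at least 10% of the UMIs was found for 0.757% of genes with at least 100 UMIs in Nuc1 and for 1.26% in WT, and the median top share was 0.851% and 0.795%. Ptges and Ptgs2 were spread more widely, with 50% of their Nuc1 UMIs in 95 and 42 cells.

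The Nuc1 cell with 691 Ptgds UMIs fell in the astrocyte-like cluster. It had 29503 UMIs, 198 of Gfap and 74 of Aqp4, and a summed astrocyte level of 26167 CPM, but also 106 UMIs of the imprinted gene Nnat, 39 of Cldn11 and 19 of Foxc1, the latter a transcription factor of the meninges. Its summed meningeal markers stood at 2542 CPM, against 480 in Nuc1 astrocyte-like cells as a whole, and its fibroblast markers at 1085 against 439. Scrublet did not mark it as a doublet, and whether it holds the RNA of more than 1 cell was not tested further. Without it the Nuc1 astrocyte-like cells had 24 UMIs of Ptgds, 2.68 CPM in place of 79.6. The WT astrocyte-like cells had 0 UMIs, so over a floor of 3 counts in WT the Nuc1 level was 74.5-fold higher with that cell and 2.48-fold higher without it. Counting error in both libraries gave lower limits of the log2 ratio of 5.92 and 0.90.

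The other Ptgds-rich cells were spread over several clusters. At a limit of 1000 CPM, 16 Nuc1 cells and 0 WT cells were rich in Ptgds, and they held 1856 UMIs, 81.1% of the Nuc1 total. Of the 16, 9 were in cluster 2, 3 in cluster 4, 2 in cluster 8 and 1 each in clusters 3 and 5. Nnat was detected in 11 of the 16, against 33.1% of the remaining Nuc1 cells and 57.2% of WT cells. These shares are unthinned and over all clusters, while most of the 16 were in cluster 2. No share of Nnat within cluster 2 or at equal depth is given, so a link with Ptgds beyond cluster and depth was not tested. The 2 cells of cluster 8 had 102 and 94 UMIs of Ptgds beside 9093 and 13661 of Ttr, the transthyretin gene of choroid plexus, of the 201 UMIs behind that cluster's 319 CPM. In the dividing cluster, 164 of 212 UMIs (88.6 CPM) were in 1 cell. Outside the 16 cells Ptgds stood at 12.6 CPM in Nuc1 and 4.43 in WT, a log2 ratio of 1.51 (1.24 to 1.79).

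**Figure D3:**
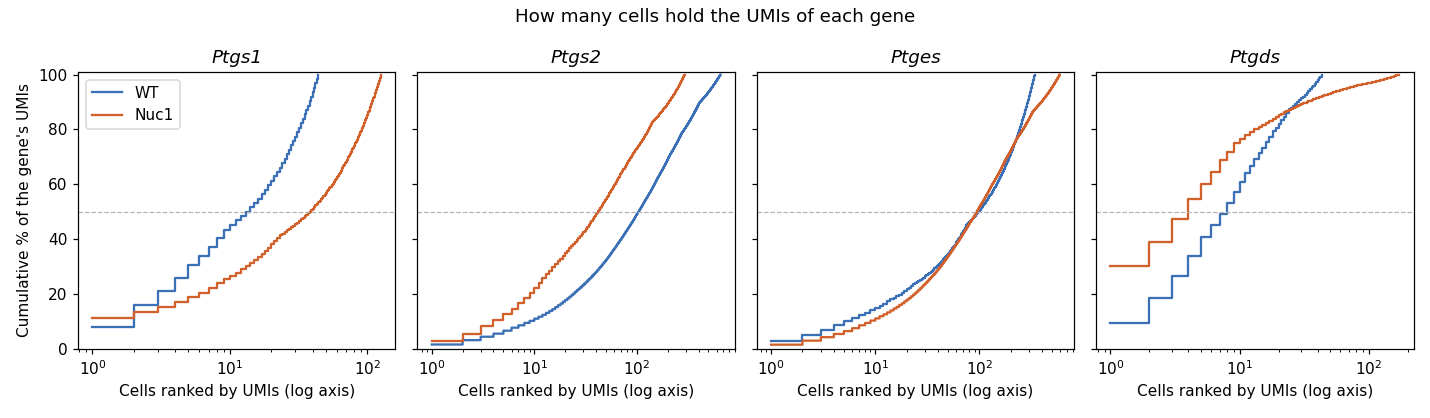
Cumulative percentage of the UMIs of Ptgs1, Ptgs2, Ptges and Ptgds (vertical axis) over cells ranked from most to fewest UMIs (horizontal axes, log scale), for WT (blue) and Nuc1 (orange); the dashed line marks 50%. The Nuc1 line of Ptgds begins at 30.2% with the first cell and passes 50% at 4 cells, whereas that of Ptges needs 95 cells.

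In fibroblast-like cells alone, Ptgds was 5.42 CPM in WT and 56.9 in Nuc1, a log2 ratio of 3.39 (3.13 to 3.66), and 3.27 without the top cell of each library. Cluster 2, whose leading gene Cldn11 is a tight junction gene of meningeal as well as myelinating cells, held most of the WT and much of the Nuc1 UMIs, 100 in WT (19.2 CPM) and 823 in Nuc1 (223 CPM). Its Ptgds was in 27 of 298 WT cells (9.06%) and 58 of 203 Nuc1 cells (28.6%), or 4.78% and 16.5% at 5000 UMIs per cell. The ratio in cluster 2 was 3.54 (3.23 to 3.85), and 3.36 without the top cells. Leaving out 1 cell per library does not remove the dependence on few cells. In Nuc1 the top 5 cells held 74.8% of the Ptgds UMIs of cluster 2 and 57.3% of those of all fibroblast-like cells. Cluster 0 had 11 UMIs in WT (1.21 CPM) and 113 in Nuc1 (18.7 CPM), a ratio of 3.95 (3.06 to 5.0), in 1.03% and 10.9% of its cells, or 0.298% and 5.60% when thinned. Clusters 1 and 4 had ratios of 1.15 (0.14 to 2.16) and 1.63 (0.63 to 2.86), but 11 of 18 and 6 of 8 of their WT UMIs were in 1 cell each. Without the top cells the ratios were 2.26 (0.90 to 3.79) and 2.95 (1.07 to 6.01). Astrocyte-like cells, which are deeper, had a UMI in 0 of 107 WT cells and 3.14% of Nuc1 cells at medians of 25925 and 24364.5 UMIs, and 1.16% of the latter when thinned. With cells of over 10% mitochondrial UMIs left out, the fibroblast-like ratio was 2.56. Clustering the remaining cells anew put the Cldn11 and Thbd type in a cluster of 866 cells in place of 501. Its Ptgds was 172 UMIs over both libraries in place of 923, or 12.9 CPM in place of 104. Over all cells, whatever their cluster, the limit left 411 of 2288 Nuc1 UMIs and 52 of 150 WT UMIs of Ptgds. It left 1110 of 1782 Nuc1 cells and 1244 of 1963 WT cells. The Nuc1 cells with 691, 199, 196, 164 and 125 UMIs had 10.7% to 12.2% mitochondrial UMIs and were left out. Those with 94 and 73 UMIs had 4.88% and 9.51%. The part of the wider cluster in the level was not tested. Of the 171 Nuc1 cells with Ptgds, 92 had 1 UMI, and how many of these hold free RNA of the rich cells was not tested.

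Hpgd (ENSRNOG00000010610), which degrades prostaglandins, was barely detected. WT had 8 UMIs, 5 of them in 1 astrocyte-like cell, and Nuc1 had 10 UMIs in 10 cells. All 18 were in the astrocyte-like cluster (12 UMIs, 1.02 CPM) and the motile cilia cluster (6 UMIs, 2.32 CPM). Fibroblast-like clusters had none: the limits that 3 counts allow ran from 0.293 CPM in cluster 1 to 4.23 in cluster 4 of WT, and from 0.497 to 0.813 in Nuc1. In astrocyte-like cells the log2 ratio was -2.16 (-4.16 to -0.29), and -0.69 (-3.49 to 2.78) without the top cells, an interval that includes 0.

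Counted over fibroblast-like cells, 3 of the 4 members with at least 20 UMIs were over 2-fold higher in Nuc1 (Ptgs1, Ptges and Ptgds) and 1 was over 2-fold lower (Ptgs2). Among all 12178 genes with at least 20 UMIs there, 6.96% were over 2-fold higher and 5.39% lower. Over all cells the same 3 were higher and Ptgs2 lower, beside 10.3% and 6.19% of 13486 genes. Since the members were picked with these differences known, nothing is read from the counts.

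The other genes of the pathway came from a list of 31, of which 30 were found. In fibroblast-like cells 17 had at least 20 UMIs, 2 were over 2-fold higher in Nuc1, 1 was over 2-fold lower, and the median log2 ratio was 0.00, beside 0.04 over all genes. The intervals lay above 0 for 4 and below 0 for 8 of the 17. The share of all genes with an interval apart from 0 is not given here, so nothing is read from these counts. By role, the phospholipase Pla2g4a, which frees arachidonic acid, stood at 36.7 CPM in WT and 35.9 in Nuc1 in cluster 4, the cluster of Ptges, which was its highest level in Nuc1, while 10 UMIs in WT macrophage-like cells gave 42.4 CPM. The cytosolic synthase Ptges3, also a co-chaperone, was found everywhere, from 140 CPM in WT macrophage-like cells to 777 in Nuc1 motile cilia cells, and Ptges2 was highest in the motile cilia cluster at 107 and 109 CPM.

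Macrophage-like cells carried other branches. Hpgds, the haematopoietic prostaglandin D2 synthase, had 45 UMIs in WT (191 CPM) and 10 in Nuc1 (134 CPM) there and 2 UMIs elsewhere. The macrophage-like cells held 0 UMIs of Ptgds in WT, which allows up to 12.7 CPM, and 1 UMI in Nuc1. Tbxas1, thromboxane synthase, stood at 89.1 and 40.2 CPM, and Alox5ap, the helper protein of 5-lipoxygenase, at 165 and 13.4 CPM, the last from 39 UMIs and 1. The Nuc1 cells of this cluster were shallow and had lower macrophage markers, as given above, and the part of this in the values was not tested.

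Receptors and transporters had other patterns. Ptger2, a receptor of prostaglandin E2, was highest in cluster 0 (65.0 CPM in WT and 63.8 in Nuc1) and low in cluster 4 (5.64 and 3.50), the cluster with most Ptges. The prostaglandin transporter Slco2a1, which takes prostaglandins up, had the same order, with 59.5 and 51.6 CPM in cluster 0 and 7.05 and 3.15 in cluster 4. Ptger3, a receptor of the same ligand, was a gene of the motile cilia cluster (50.9 and 36.6 CPM) and of astrocyte-like cells (8.19 and 19.0 CPM, log2 ratio 1.22, 0.58 to 1.91). Abcc4, an exporter of prostaglandins, was highest in astrocyte-like cells at 26.0 and 23.9 CPM. Tbxa2r, the thromboxane receptor, was highest in cluster 4 at 5.64 and 6.13 CPM.

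The 3 genes past 2-fold in fibroblast-like cells were Abcc4 (log2 ratio 2.10), Tbxa2r (2.01) and Ptgfrn (-1.79). Abcc4 was at 2.82 CPM in WT (2 UMIs) and 14.4 in Nuc1 in cluster 4. Tbxa2r had a ratio of 0.12 (-1.36 to 2.07) within cluster 4, its highest cluster, so that its pooled ratio, like that of Ptges, stands beside the larger share of cluster 4. Ptgfrn, a regulator of the prostaglandin F2α receptor, was lower in each fibroblast-like cluster, at 53.4 CPM in WT and 18.6 in Nuc1 in cluster 1 and at 47.8 and 14.8 in cluster 0. Ptger2 and Slco2a1 had pooled ratios of -0.44 and -0.47, but -0.03 (-0.22 to 0.16) and -0.21 (-0.41 to 0.00) in cluster 0, where both were highest.

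**Figure D4:**
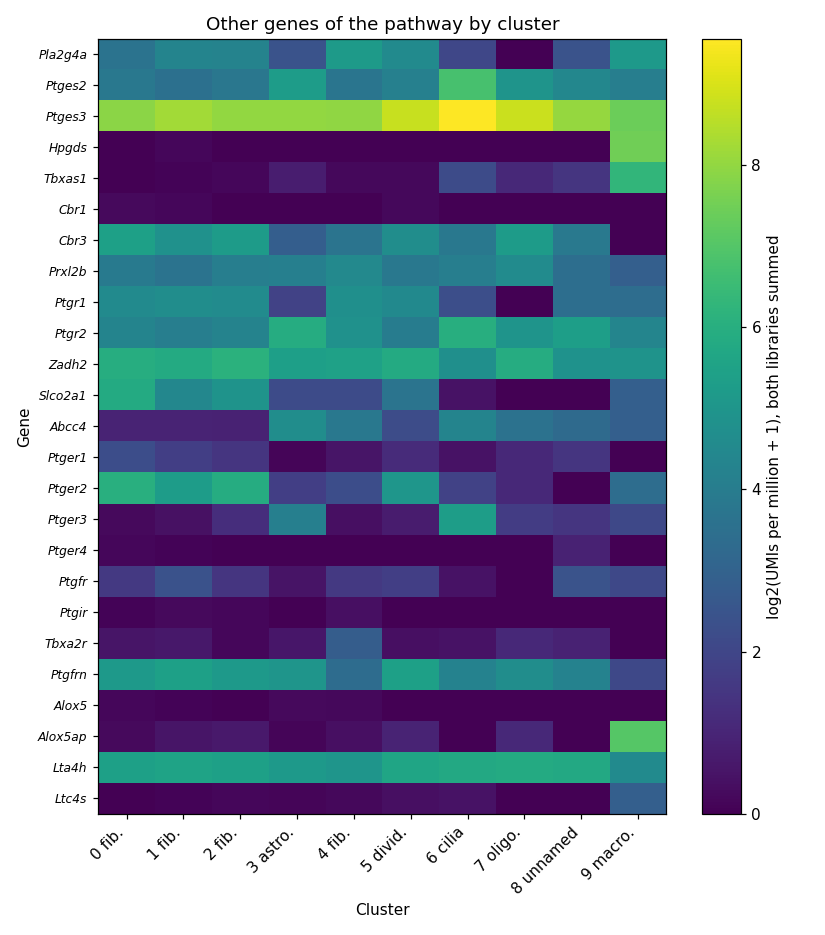
Level of other genes of the pathway (rows) in the 10 clusters (columns), as log2(CPM + 1) over both libraries summed; brighter is higher. Hpgds, Tbxas1 and Alox5ap are bright in the macrophage-like cluster, Ptger3 in the motile cilia and astrocyte-like clusters, and Ptger2 and Slco2a1 are brightest in cluster 0.

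Genes with the most similar pattern were sought over 18 points, the 9 clusters of each library with at least 20 cells, by the correlation of log2(CPM + 1). For Ptges these were Card6 (Pearson r = 0.93), Heph (0.90) and Mdfi (0.90), and for Ptgs2 the collagen gene Col5a1 (0.97), Flrt2 (0.94) and Loxl1 (0.94). Ptgs1 was nearest to Ifngr1 (0.80), B2m (0.78) and RT1-A2 (0.75), and Ptgds to Yju2 (0.73), Map1s (0.72) and Tmem115 (0.70). Points of 1 library share its depth and composition, and the likeness is given as a description. Genes whose top cell held 10% or more of their UMIs were not candidates, but the members were not held to that limit. For Ptgds, 1 cell held 96.6% of the Nuc1 UMIs in cluster 3 and 77.4% in cluster 5. Its likeness to other genes therefore depends on where a few cells fell.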

How the data were processed

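Cells of 2 rat optic nerve libraries (WT and Nuc1, 1 each) were profiled with a droplet 3′ kit. The deposited values are raw UMI counts per gene and cell, which the authors made with Cell Ranger 3.1.0 and STAR 2.7 per the submitters' processing notes, which also name Seurat 3.1.0 and 3.1.1; the genome build is not given in the sources used here. Of 2107 WT and 1929 Nuc1 barcodes, those under 500 detected genes or above 20% UMIs from the 13 mitochondrial genes were dropped, and 5 and 11 that Scrublet marked as doublets (expected rate 2%) were left out. In Nuc1 this is 11 of 1793 cells, in WT 5 of 1968, so most doublets may remain. Libraries were integrated and clustered in Seurat 5.3.0 (2000 variable genes without members or pathway genes, 30 components, resolution 0.5), and clusters were called from summed markers at limits set after seeing the data. Counts were summed per library and cluster and divided by total UMIs (CPM). Intervals are exact: Poisson for sums, Clopper-Pearson for shares, and conditional binomial for ratios, at 95%. PCR duplicates are removed by UMIs, and the intervals cover counting error only. A sum of 0 was given a limit of 3 counts. Shares were also computed after thinning each cell with at least 5000 UMIs to 5000, with shallower cells left out. Genes named are the members, genes of the lists, leading genes of clusters and of single cells with over 10% of a member's UMIs, and the 3 genes most like each member with at least 200 UMIs, sought among genes with at least 500 UMIs; Nnat and the limit of 1000 CPM of Ptgds were chosen after their values were seen. The members and all lists were chosen with earlier results of these data known. With 1 library per genotype, no test was run. On simulated counts for 12178 genes in fibroblast-like cells, 95.6% of intervals held the true ratio. That share is over all these genes and is not given apart for genes whose UMIs lie in few cells, such as Ptgds. It does not show how far ratios vary between libraries of 1 genotype, which these data cannot give. Python 3.11.15, scipy 1.17.1, scanpy 1.11.5, R 4.3.3 and edgeR 4.0.16 (scaling factors of an alternative) were used. Alternatives changed the cell filters, doublet treatment, integration, resolution, scaling and depth.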

Additional observations from a re-analysis of the deposited data

Results flagged for a closer look

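Ptges was found in Nuc1 barcodes that the filters left out, at 21.7 CPM (13.9 to 32.2, 24 UMIs in 147 barcodes, 12 of them in 1 barcode). The left-out WT barcodes had 1.53 CPM (1 UMI in 144). Both were below the kept cells, at 57.0 CPM in Nuc1 and 14.3 in WT. Ptgds in the left-out barcodes went the other way from the kept cells. It had 15.3 CPM in WT (10 UMIs, 8 of them in 1 barcode) and 0.903 in Nuc1 (1 UMI). Ptgs1 pointed in opposite directions in a pair of clusters, with a log2 ratio of Nuc1 over WT of 3.0 in cluster 1, the Actg2 and Penk fibroblast-like cells, and -3.84 in the unnamed cluster 8. The difference between these ratios was not tested, since each genotype has 1 library, and 20 of the 38 Nuc1 UMIs in cluster 1 were in 1 cell, as were 5 of the 11 WT UMIs in cluster 8. Ttr and Gldn lead cluster 8, and the 3 WT cells there with the most Ptgs1 had 0 UMIs of Ttr. Ttr in its other WT cells is not given here, and unlike cells may be compared within the cluster.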

How the results depend on the processing

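No paired analysis was possible because WT and Nuc1 are a single library apiece, and for the same reason no replicate could be left out in turn. No alternative reversed a ratio. With the 4 clusters weighted equally, an alternative added after seeing the data, the fibroblast-like log2 ratios were 2.57 for Ptgds, 0.72 for Ptges, 1.64 for Ptgs1 and -1.59 for Ptgs2, against 3.39, 2.40, 2.90 and -1.15 as reported. With fibroblasts taken as cells with at least 3 UMIs of each of Col1a1, Col3a1 and Dcn, they were 3.73, 1.96, 2.0 and -1.34. Thinning to 5000 UMIs gave 3.74 for Ptgds, 2.58 for Ptges and -1.33 for Ptgs2, and leaving out cells of high UMI count 3.71 for Ptgds. A limit of 10% mitochondrial UMIs gave 2.56 for Ptgds and 2.65 for Ptges. Over all cells that limit gave 2.97 for Ptgds, 2.28 for Ptges and -1.26 for Ptgs2, against 3.90, 2.0 and -1.48. Thinning gave 4.23 for Ptgds and 2.22 for Ptges. Ptgds was 3.52 without the top cell of each library and 1.51 without cells of at least 1000 CPM, the latter also added after seeing the data.

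Levels over both libraries moved most for Ptgds in the Cldn11 and Thbd type, 104 CPM as reported: 12.9 at the 10% mitochondrial limit, 84.4 with no doublets left out, 77.9 without cells of high UMI count, 92.3 merged without integration, 29.1 at resolution 0.2, 114 at resolution 1.0 and 80.3 without the top cells. All but the last of these settings redrew the clusters, and the type lay in 866 cells at the 10% limit and in 2253 at resolution 0.2, where it shared 1 cluster with the Actg2 and Penk type, against 501 as reported. Ptges in the Inmt and Cyp26b1 type was 297 CPM at resolution 1.0 against 258. Ptgs2 in the Actg2 and Penk type was 103 merged and 63.4 at resolution 0.2 against 94.7. Hpgd in astrocyte-like cells was 0.512 without the top cells against 1.02. Ptgs1 in macrophage-like cells ranged from 24.7 to 35.4 CPM over 7 alternatives, and the 10% mitochondrial limit and resolution 0.2 left no macrophage-like cluster. Beyond these cluster sizes, and the Ptgds UMIs that the 10% limit took out, causes of the shifts were not tested. Depth limits the small clusters, above all the 22 Nuc1 macrophage-like and 10 Nuc1 oligodendrocyte-lineage cells, where 0 UMIs allow 40.2 and 28.1 CPM.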
